A study of Homo sapiens with 12 samples.

Results

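The human interferon-stimulated genes and RNA sensors described here are 37 genes, chosen by symbol, of 57704 genes in the deposited count table. All 37 had a row, 28 passed the filter on low counts and were tested, and 9 (IFIT2, IFITM1, MX1, OAS1, OAS2, OASL, IRF9, DHX58 and IFI44) were below it. The libraries count 3′ ends of polyadenylated RNA from HEK293, an established human embryonic kidney cell line. The cells stably carried a reporter named intron-DARP-EGFP, labelled as an endogenous intronic sequence with DARP and expressing DARP-EGFP. Of the 12 libraries, 6 came from cells given a pool of SUPT4H1 siRNAs and 6 from cells given scrambled siRNA, at 100 nM for 72 hours, each from its own transfection of 1 shared culture. ERCC spike-in standards went into the lysates, mix 2 in the SUPT4H1 siRNA group and mix 1 in the scrambled siRNA group. Every library therefore came from cells that had received double-stranded siRNA with a lipid reagent, and untransfected cells were not analysed here. The sources used here do not say whether the reporter line is 1 clone. SUPT4H1 encodes the small subunit of the transcription elongation factor DSIF, and the series asked how its loss affects transcription of the repeat-containing reporter.

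Vertebrate cells detect foreign or misplaced double-stranded RNA with the cytosolic helicases RIG-I (DDX58) and MDA5 (IFIH1), which signal through MAVS on mitochondria, and with the endosomal receptor TLR3. These switch on IRF3 and IRF7, the factors that induce interferon genes. Secreted interferons bind their receptors, and a complex that holds STAT2 and IRF9 enters the nucleus, binds interferon-stimulated response elements and raises antiviral genes such as the IFIT, OAS, MX and ISG15 genes. HEK293 cells are commonly used to rebuild such pathways because they lack several of the Toll-like receptors.

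The knockdown was visible in every library. SUPT4H1 had 20.8 ± 1.79 CPM (TMM-scaled counts per 1000000 endogenous counts) in SUPT4H1 siRNA libraries and 184 ± 8.95 CPM in scrambled siRNA libraries (SD, n = 6 each), and the groups did not overlap (17.7 to 23.2 CPM against 175 to 198 CPM). By edgeR's quasi-likelihood test with Benjamini-Hochberg adjustment, used for every adjusted p below, its log2 fold change was −3.14 with an SE of 0.08 (adjusted p = 3.62e-17). Endogenous counts per library ran between 6591194 and 11366971 with SUPT4H1 siRNA and between 7337033 and 20269171 with scrambled siRNA. The RNA integrity number was 9.6 to 10 with SUPT4H1 siRNA and 9.9 to 10 with scrambled siRNA. Intervals and limits given for summed counts cover counting error only. On the second principal component (16.8% of the variance) SUPT4H1 siRNA replicate 6 stood at −38.4, apart from the rest of its group at 3.92 to 19.5. Relative to the spike-in standards, less endogenous mRNA was recovered with SUPT4H1 siRNA. Endogenous counts over spike-in counts had a log2 ratio of 8.23 ± 0.57 in SUPT4H1 siRNA libraries and 9.16 ± 0.32 with scrambled siRNA (SD, n = 6 each; exact two-sided permutation test, p = 0.013). The groups overlapped, at 7.62 to 9.27 with SUPT4H1 siRNA and 8.78 to 9.74 with scrambled siRNA. Each group received its own mix, so differences in endogenous mRNA and in the standards added cannot be told apart. Fold changes below are relative, scaled so that the median of all tested genes is near 0, unless spike-in scaling is named. In bulk RNA, a change in a fraction of the cells and a smaller change in all of them cannot be told apart.

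The 37 genes spanned a wide range of levels. Each 3′ tag stands for 1 transcript end, so CPM can be compared between genes without scaling by length. ADAR, which edits adenosine in double-stranded RNA, was the highest with 143 ± 14.8 CPM in SUPT4H1 siRNA libraries and 138 ± 18.0 CPM in scrambled siRNA libraries (SD, n = 6 each). MAVS, EIF2AK2 and TRIM25 followed, at group means of 54.2 to 98.7 CPM. These 4 genes together held 362 to 388 CPM with SUPT4H1 siRNA and 326 to 402 CPM with scrambled siRNA, and these ranges overlapped. The other 33 genes summed to 267 to 309 CPM with SUPT4H1 siRNA and to 232 to 242 CPM with scrambled siRNA, without overlap. Abundant genes weigh most in this sum, and SAMHD1, which differed between the groups, was the most abundant of the 33. The sum does not show how many of the 33 differed. In means with SUPT4H1 siRNA and scrambled siRNA, SAMHD1 had 48.6 and 24.4 CPM, IFITM2 31.3 and 31.1 CPM, and IRF7 3.38 and 7.41 CPM. Several classical antiviral genes stood far lower. ISG15, a ubiquitin-like modifier, averaged 8.78 and 8.88 CPM in SUPT4H1 siRNA and scrambled siRNA libraries, and MX1, OAS1, OAS2, OASL, IFI44, IRF9 and DHX58 averaged under 0.5 CPM in both groups.

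**Figure D1:**
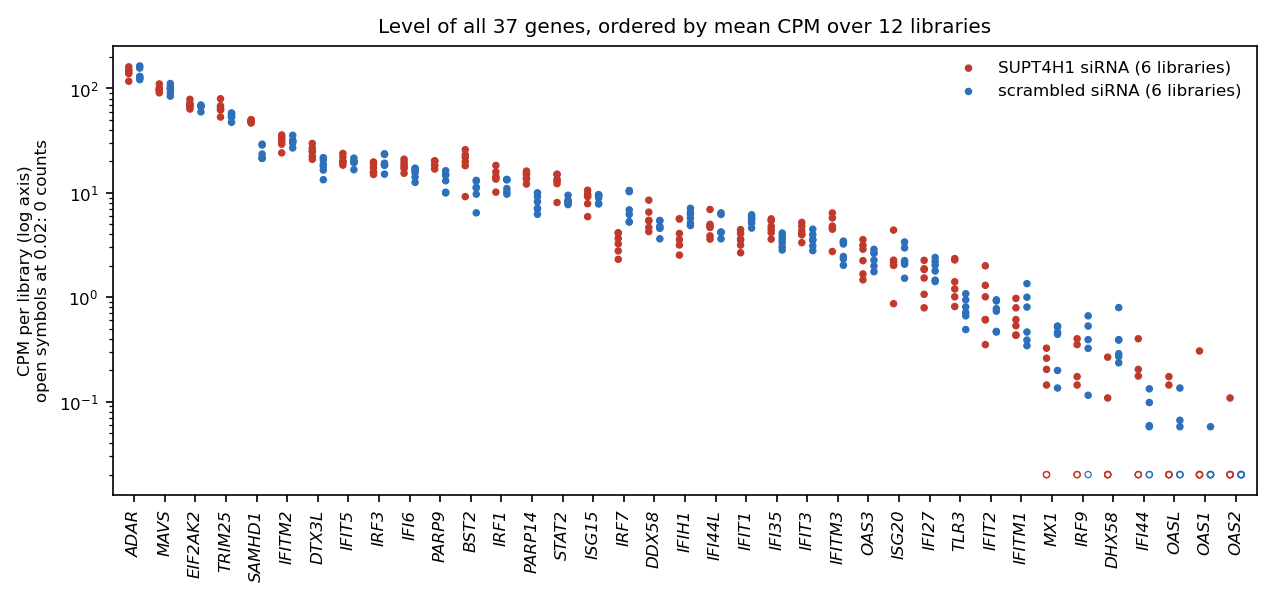
CPM of each of the 37 genes in each library (y axis, log scale), ordered from the highest to the lowest mean over the 12 libraries; red points are SUPT4H1 siRNA, blue points scrambled siRNA (6 libraries each), and open symbols mark libraries with 0 counts. SAMHD1 separates cleanly between the groups, at 46.6 to 50.3 CPM with SUPT4H1 siRNA against 21.4 to 29.3 CPM with scrambled siRNA, while ADAR and MAVS overlap.

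Of the 28 tested genes, 13 (46.4%) passed the test (adjusted p under 0.05), against 40.1% of all 13820 tested genes. SAMHD1, TLR3, BST2, PARP14, IFITM3, STAT2, PARP9, DTX3L, IFI35 and TRIM25 were higher with SUPT4H1 siRNA, which makes 10 of 28, against 20.3% of all tested genes called higher. IRF7, IFIT1 and IFIH1 were lower, which makes 3 of 28, against 19.8% called lower. The groups did not overlap for 3 of the higher genes (SAMHD1, PARP14 and PARP9; 10.3% of all tested genes were higher without overlap) and for 2 of the lower genes (IRF7 and IFIT1; 9.91% were lower without overlap). With the spike-in scaling described further on, 0 of the 10 higher genes were higher and the 3 lower genes were lower. The median relative log2 fold change was 0.16 over the 28 tested genes and 0.0025 over all tested genes, with the quartiles of all tested genes at −0.27 and 0.28. Since the filter asks for counts in enough libraries, these shares do not describe the 9 genes below it.

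**Figure D2:**
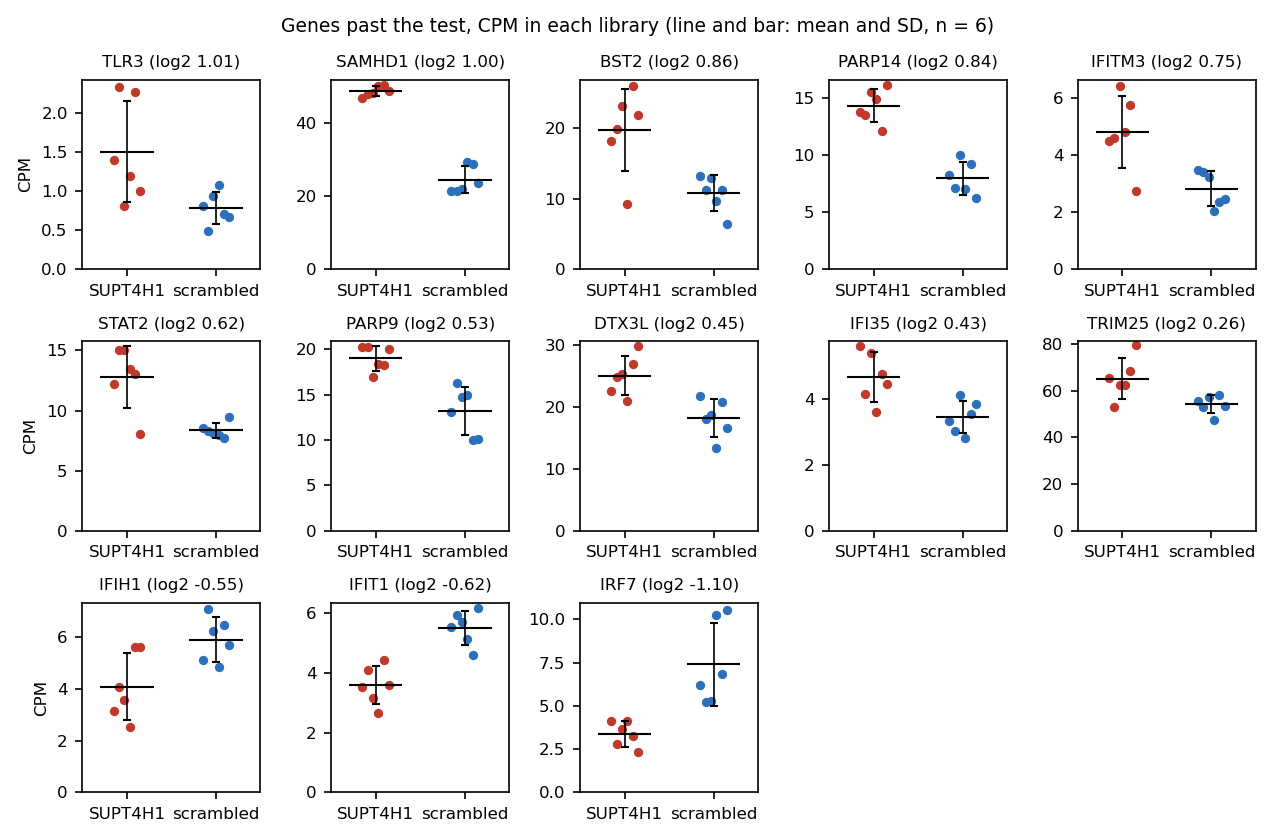
CPM in each library for the 13 genes past the test, 1 panel a gene, with SUPT4H1 siRNA (red) left of scrambled siRNA (blue), a linear y axis from 0 in each panel, and lines and bars for the mean and SD of 6 libraries. SAMHD1, PARP14, PARP9, IRF7 and IFIT1 show no overlap, whereas the low BST2 library (9.21 CPM, SUPT4H1 siRNA replicate 4) and the low STAT2 library (8.08 CPM, SUPT4H1 siRNA replicate 6) lie among the scrambled siRNA libraries.

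Short promoter stretches show a sequence feature that many of these genes share. Interferon-stimulated response elements have the core GAAANNGAAA, which reads TTTCNNTTTC on the other strand. The core was searched on both strands in RefSeq promoter windows (GRCh38.p14, 250 bases before to 50 after each start), and overlapping matches were counted separately. The stretches below were picked to set genes that were lower (IFIT1, IFIH1), higher (BST2, PARP14, PARP9 with DTX3L) and not called (ISG15) side by side. Each is the 30 bases around the first match, on the strand of its gene, with matching bases in capitals.
IFIT1 (chr10:89392497-89392526, plus strand): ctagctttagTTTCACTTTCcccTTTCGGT
IFIH1 (chr2:162318824-162318853, minus strand): gagaattcgcTTTCCTTTTCTGTTTCccgc
BST2 (chr19:17405741-17405770, minus strand): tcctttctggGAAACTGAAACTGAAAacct
PARP14 (chr3:122680800-122680829, plus strand): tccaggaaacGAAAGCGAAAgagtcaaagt
DTX3L (chr3:122564322-122564351, plus strand): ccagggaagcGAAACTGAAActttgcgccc
PARP9 (chr3:122564322-122564351, minus strand): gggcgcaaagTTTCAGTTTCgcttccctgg
ISG15 (chr1:1013374-1013403, plus strand): catgcctcggGAAAGGGAAACCGAAActga

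The DTX3L and PARP9 lines are the same 30 bases read on opposite strands, so these 2 genes share 1 match. In IFIT1 the second match runs past the end of the stretch. RefSeq windows were found for 30 of the 37 genes (DDX58 under its newer symbol RIGI), and not for IFIT2, IFITM2, OAS2, OASL, IRF3, IRF7 and DHX58. The core occurred in 20 of the 30 (66.7%), against 4.38% of all 27305 genes with a window. By result, it occurred in 6 of 10 genes called higher, 2 of 2 called lower that have a window, 9 of 13 not called and 3 of 5 below the filter. SAMHD1, STAT2, TRIM25 and IFI35 were higher with no match in their windows, while ISG15, IFIT5 and OAS3 have matches and were not called. The core of the gamma-activated site, TTCNNNGAA, may overlap the first motif. It occurred in 10 of 30 genes (33.3%), against 9.38% of all genes. A match describes these letters only, and no match says only that they are not in the window.

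Among the factors that induce interferon genes or carry the interferon signal, IRF7 fell and STAT2 rose. IRF7 (ENSG00000185507, chr11:612553-615999, GRCh38, minus strand), the inducible factor for interferon alpha genes, had a lowest, median and highest level of 2.31, 3.46 and 4.14 CPM in SUPT4H1 siRNA libraries, against 5.25, 6.54 and 10.5 CPM in scrambled siRNA libraries. All 6 SUPT4H1 siRNA libraries lay below all 6 scrambled siRNA libraries. IRF7 was 2.14-fold lower (log2 −1.10, SE 0.21, adjusted p = 0.000322). STAT2, the interferon-specific STAT, had 8.08, 13.2 and 15.1 CPM with SUPT4H1 siRNA and 7.71, 8.23 and 9.48 CPM with scrambled siRNA (lowest, median and highest). Of the SUPT4H1 siRNA libraries, 5 were above every scrambled siRNA library, and replicate 6 lay within the scrambled siRNA range. Its log2 fold change was 0.62 with an SE of 0.14 (adjusted p = 0.00106). IRF3, the ready-made factor that sensors activate first, had 17.1 ± 1.89 CPM with SUPT4H1 siRNA and 19.7 ± 3.27 CPM with scrambled siRNA (SD, n = 6 each), with a 95% interval of −0.44 to 0.05 around a log2 fold change of −0.19, and was not called. IRF1, a factor induced by interferon gamma, was not called either at 14.4 ± 2.70 and 11.9 ± 1.74 CPM in SUPT4H1 siRNA and scrambled siRNA libraries. Its log2 fold change was 0.26, and 0.34, past the threshold, without SUPT4H1 siRNA replicate 2. Exons of IRF1 lie opposite C5orf56, which was higher by 0.99 on the log2 scale. Exons of IRF3 lie opposite BCL2L12 over 734 bases, and BCL2L12 was higher by 0.25. Neither overlap reaches the last 500 bases of the IRF gene. The strand setting of the counting is not given in the sources used here. IRF9, the DNA-binding partner of STAT2, was near the limit of detection. It had 10 counts in all SUPT4H1 siRNA libraries and 34 in all scrambled siRNA libraries. The ratio per TMM-scaled endogenous count was 0.484 with a 95% counting interval of 0.213 to 1.00. The 3′ end of IRF9 overlaps another annotated gene on the same strand.

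Of the RNA sensors and their partners, TLR3 and TRIM25 were called higher, IFIH1 lower, and DDX58 and MAVS were not called. IFIH1 (MDA5), the sensor of long double-stranded RNA, was lower with SUPT4H1 siRNA at 2.53, 3.82 and 5.64 CPM (lowest, median and highest), against 4.86, 5.97 and 7.11 CPM with scrambled siRNA. SUPT4H1 siRNA replicates 5 and 6 lay among the scrambled siRNA libraries. The log2 fold change was −0.55 (SE 0.19, adjusted p = 0.0245), and the call did not hold without SUPT4H1 siRNA replicate 1 (−0.48), 3 (−0.51) or 4 (−0.45). DHX58 (LGP2), the related helicase that modulates the other sensors, had 3 counts in all SUPT4H1 siRNA libraries and 37 in all scrambled siRNA libraries. All 6 scrambled siRNA libraries had at least 1 count of it, and 2 of the SUPT4H1 siRNA libraries did. Per TMM-scaled endogenous count the ratio was 0.133 (95% counting interval 0.0263 to 0.421). The fit with no filter on low counts called DHX58 lower (adjusted p = 0.0146). DDX58 (RIG-I), the sensor of RNA with a 5′ triphosphate, had 4.25, 5.43 and 8.51 CPM with SUPT4H1 siRNA and 3.63, 4.68 and 5.45 CPM with scrambled siRNA. The groups overlapped, and the log2 fold change of 0.27 (95% interval −0.10 to 0.63) was not called.

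TLR3, which senses double-stranded RNA in endosomes, had the highest log2 fold change of the 28 genes at 1.01 (SE 0.31, adjusted p = 0.0139), at very low counts. It had 0.815, 1.30 and 2.34 CPM in SUPT4H1 siRNA libraries and 0.491, 0.759 and 1.08 CPM in scrambled siRNA libraries, from 88 and 69 counts in all. Of the SUPT4H1 siRNA libraries, 4 lay above every scrambled siRNA library. Its call did not hold without SUPT4H1 siRNA replicate 2 (0.83), with the RNA integrity number as a covariate (0.76) or with replicate blocks (0.96). TRIM25, the ubiquitin ligase known as a cofactor of RIG-I, was slightly higher at 53.2, 64.0 and 79.6 CPM with SUPT4H1 siRNA, against 47.4, 54.5 and 58.3 CPM with scrambled siRNA. The groups overlapped in SUPT4H1 siRNA replicate 2, and SUPT4H1 siRNA replicate 6 was the highest library. TRIM25 had a log2 fold change of 0.26 (SE 0.09, adjusted p = 0.0223), which was not past the threshold without SUPT4H1 siRNA replicate 6 (0.17), scrambled siRNA replicate 2 (0.23) or 4 (0.22), or with the RNA integrity covariate (0.23). The last 500 bases of TRIM25 overlap DGKE on the opposite strand by 80 bases, and DGKE was higher by 0.83 on the log2 scale. MAVS, the adaptor of RIG-I and MDA5, had 98.7 ± 6.62 CPM with SUPT4H1 siRNA and 98.4 ± 9.51 CPM with scrambled siRNA (SD, n = 6 each). Its log2 fold change was 0.0047 with a 95% interval of −0.16 to 0.17.

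Of the kinase, editing enzyme and synthetases that act on or are activated by double-stranded RNA, EIF2AK2, ADAR and OAS3 were tested and were not called, and OAS1, OAS2 and OASL were below the filter. EIF2AK2 (PKR), the kinase that stops translation when bound to double-stranded RNA, had 69.9 ± 5.21 CPM with SUPT4H1 siRNA and 66.6 ± 3.49 CPM with scrambled siRNA (SD, n = 6 each; log2 0.07, 95% interval −0.08 to 0.22). The last 500 bases of EIF2AK2 overlap GPATCH11 on the opposite strand by 35 bases, and GPATCH11 was not called. For ADAR the log2 fold change was 0.05 (95% interval −0.14 to 0.24). The OAS genes encode synthetases whose product activates RNase L. OAS3 had 1.47, 2.56 and 3.56 CPM with SUPT4H1 siRNA and 1.76, 2.46 and 2.88 CPM with scrambled siRNA, which overlapped throughout (log2 0.06, 95% interval −0.43 to 0.55). OAS1 had 3 counts in all SUPT4H1 siRNA libraries and 1 in all scrambled siRNA libraries. OASL had 3 counts in each group. OAS2 had 1 count with SUPT4H1 siRNA and 0 with scrambled siRNA, where a count of 0 allows up to 0.0319 CPM. No difference of OAS1, OAS2 or OASL was detectable at this depth.

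The IFIT genes, whose proteins bind viral RNA, lie side by side on chromosome 10, and of the 3 tested, IFIT1 was called. IFIT1 (ENSG00000185745, chr10:89392546-89406486, plus strand), which binds RNA lacking the full cap, had 2.67, 3.56 and 4.44 CPM in SUPT4H1 siRNA libraries, against 4.60, 5.62 and 6.17 CPM in scrambled siRNA libraries. The groups did not overlap. It was lower by a log2 fold change of −0.62 (SE 0.16, adjusted p = 0.00427). IFIT3, which binds and stabilizes IFIT1, had 4.28 ± 0.66 CPM with SUPT4H1 siRNA and 3.58 ± 0.60 CPM with scrambled siRNA (SD, n = 6 each). Its log2 fold change of 0.26 (95% interval −0.10 to 0.62) was not called, so the fitted values of IFIT1 and IFIT3 lay on opposite sides of 0. IFIT5 was the most abundant of the family, at 20.6 ± 1.97 CPM with SUPT4H1 siRNA and 19.6 ± 1.60 CPM with scrambled siRNA (log2 0.08, 95% interval −0.12 to 0.28). IFIT2 was below the filter with 51 counts in SUPT4H1 siRNA libraries and 65 in scrambled siRNA libraries.

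Of the membrane-bound antiviral proteins, BST2 and IFITM3 were higher. BST2 (tetherin, ENSG00000130303, chr19:17402939-17405648, minus strand), which holds budding virions on the cell surface, had 9.21, 20.8 and 25.9 CPM with SUPT4H1 siRNA, against 6.43, 11.2 and 13.2 CPM with scrambled siRNA. Of the SUPT4H1 siRNA libraries, 5 exceeded every scrambled siRNA library. Its log2 fold change was 0.86 (SE 0.20, adjusted p = 0.00289). IFITM3, which blocks virus entry from endosomes, had 2.74, 4.70 and 6.42 CPM with SUPT4H1 siRNA and 2.03, 2.85 and 3.45 CPM with scrambled siRNA. SUPT4H1 siRNA replicate 6 was the 1 library of its group within the scrambled siRNA range. The log2 fold change of IFITM3 was 0.75 (SE 0.20, adjusted p = 0.00554). IFITM2, a close homologue, was more abundant and was not called, with 31.3 ± 4.19 and 31.1 ± 2.80 CPM in SUPT4H1 siRNA and scrambled siRNA libraries, a log2 fold change of 0.01 (95% interval −0.20 to 0.22). IFITM1 had 36 counts with SUPT4H1 siRNA and 61 with scrambled siRNA. IFITM1 and IFITM2 share 351 exonic bases at their 3′ ends in the annotation and the family is alike in sequence, so the split of counts among IFITM genes is uncertain. MX1, a GTPase against influenza viruses, had 9 counts with SUPT4H1 siRNA and 38 with scrambled siRNA. Its ratio per TMM-scaled endogenous count was 0.389 (95% counting interval 0.166 to 0.819). In the fit with no filter, MX1 was not called (adjusted p = 0.205).

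SAMHD1 had the lowest adjusted p of the 28 genes. SAMHD1 (ENSG00000101347, chr20:36889773-36951901, minus strand), which breaks down the deoxynucleotides that viruses need for DNA synthesis, had 46.6, 48.4 and 50.3 CPM in SUPT4H1 siRNA libraries, against 21.4, 22.7 and 29.3 CPM in scrambled siRNA libraries. The 6 SUPT4H1 siRNA libraries lay close together and all above the scrambled siRNA libraries. It was 2.01-fold higher (log2 1.00, SE 0.09, adjusted p = 6.22e-08). The 3′ end of SAMHD1 overlaps TLDC2 on the opposite strand, which had 0 counts with SUPT4H1 siRNA and 1 with scrambled siRNA. ISG20, an exonuclease that degrades single-stranded RNA, had 0.867, 2.10 and 4.40 CPM with SUPT4H1 siRNA and 1.52, 2.21 and 3.38 CPM with scrambled siRNA. The SUPT4H1 siRNA libraries enclosed the scrambled siRNA range, and the 95% interval of −0.62 to 0.60 was wide.

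The ADP-ribosylation genes PARP14, PARP9 and DTX3L were all higher. They lie within chr3:122527924-122730840, where PARP9 (minus strand) and DTX3L (plus strand) start head to head and PARP14 (plus strand) follows. PARP9 and the ubiquitin ligase DTX3L form a complex known to enhance interferon responses. PARP14, a mono-ADP-ribosyltransferase, had 12.1, 14.4 and 16.2 CPM with SUPT4H1 siRNA, against 6.23, 7.67 and 10.0 CPM with scrambled siRNA. There was no overlap, and its log2 fold change was 0.84 (SE 0.13, adjusted p = 3.62e-05). PARP9 had 16.9, 19.2 and 20.2 CPM with SUPT4H1 siRNA, against 9.98, 13.9 and 16.3 CPM with scrambled siRNA (log2 0.53, SE 0.13, adjusted p = 0.00221). Again the groups did not overlap. DTX3L had 20.9, 25.0 and 29.7 CPM with SUPT4H1 siRNA and 13.4, 18.3 and 21.7 CPM with scrambled siRNA (log2 0.45, SE 0.12, adjusted p = 0.00455). The lowest DTX3L library with SUPT4H1 siRNA lay within the scrambled siRNA range. PARP9 and DTX3L share 217 exonic bases on opposite strands at their starts, not in the last 500 bases of either gene. With spike-in scaling, PARP14 stood at 0.01, PARP9 at −0.31 and DTX3L at −0.31, none of them called. Within 250 kb on either side, 8 further genes were tested. WDR5B (log2 0.75), KPNA1 (0.21) and LINC02035 (0.79) were called higher, and CCDC58, FAM162A, AC083798.2, HSPBAP1 and DIRC2 were not called. Of all tested genes, 20.3% were called higher. WDR5B and LINC02035 were low, at group means of 1.57 to 3.58 CPM.

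ISG15 and the IFI genes, which encode interferon-induced proteins of varied function, were mostly not called. ISG15 had 5.92, 9.27 and 10.6 CPM with SUPT4H1 siRNA and 7.83, 9.21 and 9.62 CPM with scrambled siRNA. The groups overlapped, SUPT4H1 siRNA replicate 6 was the lowest library, and the log2 fold change was −0.01 (95% interval −0.29 to 0.28). IFI35, which pairs with the interferon-induced protein NMI, had 3.60, 4.62 and 5.63 CPM with SUPT4H1 siRNA and 2.84, 3.45 and 4.12 CPM with scrambled siRNA. The groups overlapped. Its log2 fold change of 0.43 (SE 0.17, adjusted p = 0.0454) was close to the threshold, and the call did not hold in 13 of 20 alternative analyses, where the value was 0.37 to 0.46. These included leaving out SUPT4H1 siRNA replicate 1, 3, 5 or 6 and scrambled siRNA replicate 1, 2, 4, 5 or 6. IFI6, an inhibitor of cell death and of flavivirus replication, had 18.2 ± 2.00 CPM with SUPT4H1 siRNA and 15.5 ± 1.78 CPM with scrambled siRNA (SD, n = 6 each; log2 0.24, adjusted p = 0.0831). IFI27 had a log2 fold change of −0.27 (95% interval −0.82 to 0.28) and IFI44L one of 0.0020 (95% interval −0.40 to 0.40). IFI44 had 7 counts with SUPT4H1 siRNA and 6 with scrambled siRNA.

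When libraries were scaled to the spike-in standards instead, the median log2 fold change of all tested genes was −0.82 and that of the 28 genes −0.66. With this scaling 13 of the 28 genes were lower and 0 were higher by the edgeR test, against 59% of all tested genes lower and 0.304% higher. The genes called higher in relative terms lay between −0.53 (TRIM25) and 0.28 (TLR3). SAMHD1 was at 0.16 (SE 0.32, adjusted p = 0.65) and PARP14 at 0.01 (adjusted p = 0.977), so on this scale neither differed beyond the spread. IRF7 (−2.04, adjusted p = 2.05e-06), IFIT1 (−1.40, adjusted p = 0.000995) and IFIH1 (−1.27, adjusted p = 0.00227) were lower under both scalings. The genes that were lower only with spike-in scaling were ISG15, ISG20, IFIT5, IFITM2, IRF3, EIF2AK2, MAVS, ADAR, IFI27 and IFI44L, at −1.08 to −0.73. The number of lower genes depended on single libraries, with 4 without SUPT4H1 siRNA replicate 3 or scrambled siRNA replicate 4. It was 5 without SUPT4H1 siRNA replicate 1 or 4, 8 without SUPT4H1 siRNA replicate 6 and 22 without SUPT4H1 siRNA replicate 5. Over all tested genes it ran from 5643 of 13994 without scrambled siRNA replicate 4 to 12306 of 13991 without SUPT4H1 siRNA replicate 5.

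**Figure D3:**
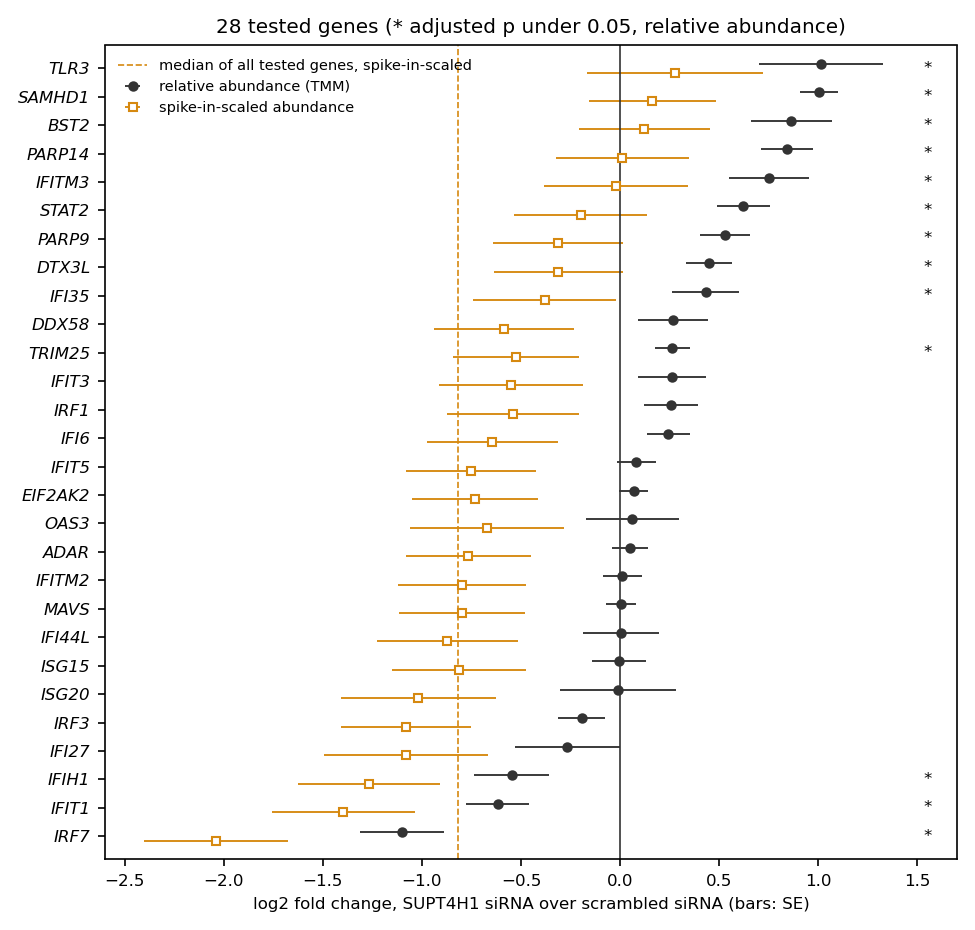
Log2 fold change of SUPT4H1 siRNA over scrambled siRNA for the 28 tested genes (x axis), ordered by the relative value; black circles are relative abundance, open orange squares spike-in-scaled abundance, bars the standard error, stars an adjusted p under 0.05 for relative abundance, and the dashed line the spike-in-scaled median of all tested genes at −0.82. IRF7, IFIT1 and IFIH1 lie left of 0 on both scales, and SAMHD1, PARP14 and IFITM3 lie right of 0 in relative terms and near 0 with spike-in scaling.

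Transcripts of the interferons themselves were nearly absent. Of 21 interferon genes looked for, 18 had 0 counts in all 12 libraries. IFNB1 had 1 count with SUPT4H1 siRNA and 0 with scrambled siRNA, IFNE had 2 and 9 counts in SUPT4H1 siRNA and scrambled siRNA libraries, and IFNK had 5 and 0. All 5 IFNK counts came from SUPT4H1 siRNA replicate 1, and both IFNE counts of that group from replicate 4. None of the 21 genes reached the filter. Among receptors and JAK-STAT genes, 5 of 15 tested were higher and 1 was lower, with a median log2 fold change of 0.05. Called in either direction were 40% of this list, against 40.1% of all tested genes (20.3% higher and 19.8% lower). STAT3, which carries cytokine signals, was higher (123 ± 9.59 CPM with SUPT4H1 siRNA and 74.0 ± 4.20 CPM with scrambled siRNA, SD, n = 6 each; log2 0.74, SE 0.07, adjusted p = 1.13e-07). The receptor-bound kinase TYK2 (0.45) and the STAT inhibitor PIAS1 (0.51) were also higher, and the interferon gamma receptor chain IFNGR2 was lower (−0.37, SE 0.07, adjusted p = 0.000499). The type I receptor chains IFNAR1 (0.16, 95% interval −0.04 to 0.36) and IFNAR2 (0.05, 95% interval −0.12 to 0.22) were not called, nor were IFNGR1 (−0.26) and the interferon lambda chain IFNLR1 (−0.19). IL10RB, the other lambda receptor chain, was higher by 0.32.

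Other genes of nucleic acid sensing were called in both directions, with 5 of 22 higher, 4 lower and a median of 0.06. The called share of 40.9% was near the 40.1% of all tested genes (20.3% higher, 19.8% lower). RNASEH2A (log2 −0.53) and RNASEH2B (−0.37), subunits of the ribonuclease that removes RNA from DNA hybrids, and PRKRA (−0.43), an activator of PKR, were lower, while the helicase DHX9 was higher (0.46). Of 30 other interferon-stimulated genes tested, 9 were higher and 3 lower, with a median of 0.29, and the called share was 40%, against 40.1% of all tested genes. MOV10, an RNA helicase that binds Argonaute proteins and restricts retroelements, had 140 ± 7.75 CPM with SUPT4H1 siRNA and 39.5 ± 3.66 CPM with scrambled siRNA (SD, n = 6 each; log2 1.82, SE 0.08, adjusted p = 5.95e-13). PML (0.72), the organizer of nuclear bodies, and the cytidine deaminase APOBEC3F (0.57) were higher, and the nucleotidase NT5C3A was lower (−0.85). Of 16 tested genes of MHC class I antigen presentation, 9 were higher and 0 lower, with a median of 0.33, against 20.3% of all tested genes higher and 19.8% lower. These included the chaperone CALR (0.70), the peptide trimming enzymes ERAP1 (0.75) and ERAP2 (0.71) and tapasin, TAPBP (0.45). Of the immunoproteasome subunits, PSMB9 was called higher (log2 1.29, SE 0.45, adjusted p = 0.0287), from 107 counts with SUPT4H1 siRNA and 68 with scrambled siRNA. Its libraries ran from 0.144 to 3.87 CPM with SUPT4H1 siRNA and from 0.589 to 1.10 CPM with scrambled siRNA. The list's other genes, the subunits PSMB8 and PSMB10, were below the filter. PSMB8 had 35 counts with SUPT4H1 siRNA and 115 with scrambled siRNA, a ratio per TMM-scaled endogenous count of 0.50 (95% counting interval 0.333 to 0.736). PSMB10 had 5 and 9 counts in SUPT4H1 siRNA and scrambled siRNA libraries. Of 7 tested NF-kB targets, RELB was higher (1.03) and NFKBIE lower (−0.60), with a median of −0.0007. The called share was 28.6%, against 40.1% of all tested genes, and 9 of the 16 NF-kB targets were below the filter. With spike-in scaling, the list medians were −0.73 for receptors and JAK-STAT genes, −0.71 for other sensing genes and −0.57 for other interferon-stimulated genes. They were −0.46 for MHC class I and −0.77 for NF-kB targets. On that scale MOV10 stood at 1.03 (adjusted p = 0.00487), STAT3 at −0.05 and CALR at −0.12.

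**Figure D4:**
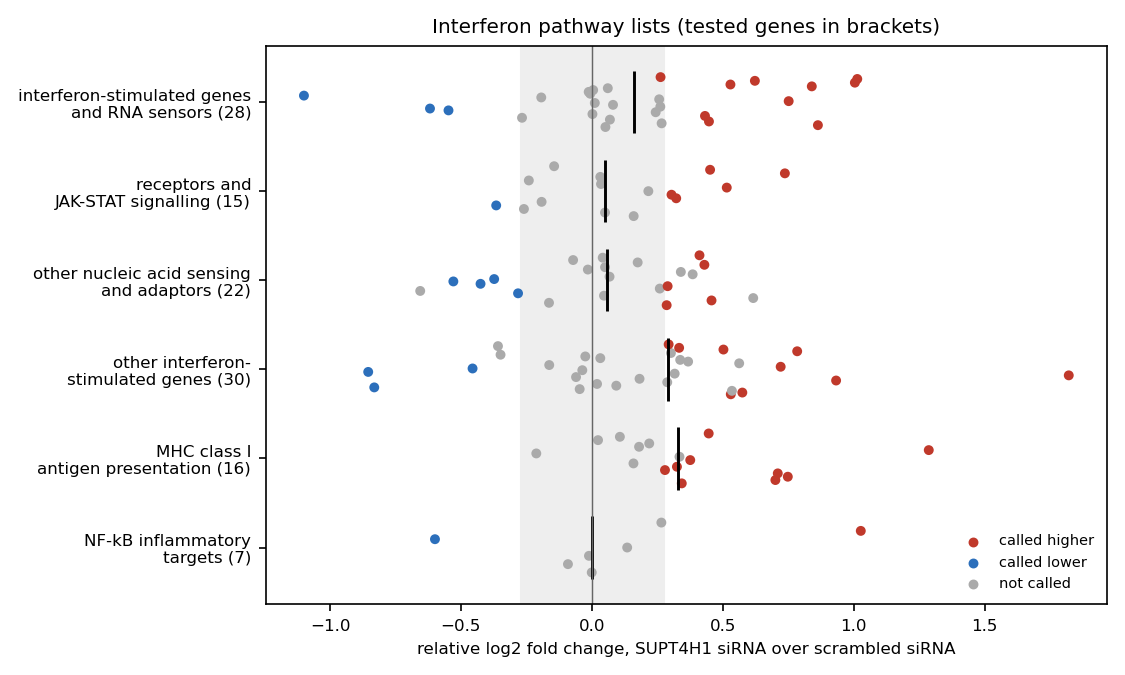
Relative log2 fold change of SUPT4H1 siRNA over scrambled siRNA (x axis) for the tested genes of 6 lists (rows, number tested in brackets); red points were called higher, blue lower and grey not called, black bars mark list medians and the grey band spans the quartiles of all tested genes (−0.27 to 0.28). The median was 0.16 for the interferon-stimulated genes and RNA sensors, 0.33 for MHC class I and 0.29 for the other interferon-stimulated genes.

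Leukocyte and endothelial markers were at or near 0. The 10 leukocyte markers summed to 0.217 to 2.04 CPM with SUPT4H1 siRNA and 0.810 to 1.79 CPM with scrambled siRNA, and 0 of the 10 reached the filter. PTPRC, LILRA4 and CLEC4C had 0 counts in all libraries. The 5 endothelial markers summed to at most 0.144 CPM with SUPT4H1 siRNA and 0.265 CPM with scrambled siRNA. The 5 fibroblast markers summed to 6.94 to 10.8 CPM with SUPT4H1 siRNA and 7.18 to 12.8 CPM with scrambled siRNA, without a common direction. PDGFRA was higher (log2 0.79, adjusted p = 0.0223), and COL1A1, the most abundant, was not called at 4.57 CPM with SUPT4H1 siRNA and 6.36 CPM with scrambled siRNA (log2 −0.46, adjusted p = 0.0828). COL1A2, DCN and LUM were below the filter, with 54, 6 and 39 counts in SUPT4H1 siRNA libraries and 51, 26 and 66 counts in scrambled siRNA libraries. The part of these markers in the values above was not tested. All 5 markers used for HEK293 passed the filter, with KRT18 lower (−0.44), VIM higher (0.27) and KRT8, PAX2 and NEFM not called.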

How the data were processed

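The authors deposited raw whole-number counts per gene for 12 QuantSeq forward 3′ mRNA libraries (200 ng RNA each, per the labels' protocols), with ERCC standards (mix 2 in the SUPT4H1 siRNA group, mix 1 in the scrambled siRNA group) added to lysates of 1000000 cells. The submitters' processing notes name build GRCh38.p10, STAR, MultiQC, FastQC 0.11.5 and R 3.4.3. How reads were counted, on which annotation and whether by strand is not given in the sources used here. Replicates are separate transfections of 1 culture, per the labels, and p-values measure only the spread among those. Every pair of libraries within a group differed beyond sampling noise (30 pairs, chi-square at least 4.42 for each degree of freedom).

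The test was edgeR 4.0.16's robust quasi-likelihood test in R 4.3.3, with all 12 libraries and no covariates, TMM scaling, the filterByExpr filter (13820 genes kept) and Benjamini-Hochberg adjustment over all of them at 0.05. CPM are TMM-scaled counts relative to endogenous counts. Spike-in-scaled fits used the summed counts of 23 ERCC standards of subgroup B, nominally equal in both mixes. Which standards belong to B was taken from general knowledge, with no supplied table. Single values were compared by an exact permutation test (smallest p 0.0022). Ratios of summed counts are relative to each group's TMM-scaled endogenous total and have exact binomial 95% intervals. A count of 0 allows up to 3 counts of the group's endogenous total. Positions are from GENCODE 29 (GRCh38) and promoters from RefSeq (GRCh38.p14).

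The 37 genes and the pathway and marker lists were chosen with earlier results of these data known. All 37 are accounted for. Genes past the test are given by lowest, median and highest CPM, untested genes by summed counts, and up to 4 called genes per list by adjusted p. Genes singled out beside these, neighbours and overlapping genes included, were chosen after their values were seen. Alternatives were DESeq2 1.42.0, limma-voom (limma 3.58.1), other scalings and filters, RNA integrity as a covariate, replicate blocks and leaving out each library. For spike-in scaling, a subset of the same standards was also used, the 7 with at least 20 counts in every library. Scripts were tested on simulated counts.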

Additional observations from a re-analysis of the deposited data

Results flagged for a closer look

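In each group of 6 libraries the gap of the highest and lowest library to its nearest neighbour was compared with the range, over 56 groups for the 28 tested genes, and 1 group stood out. EIF2AK2 was at 59.7 CPM in scrambled siRNA replicate 4, below the other scrambled siRNA libraries. Chance flags about 1 in 20 groups.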

How the results depend on the processing

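Over 21 alternatives the number of the 37 genes called in relative terms was 9 (with a filter at a mean of 5 CPM, which tested 19 of them) to 13, and that of all genes 4641 to 5901. IRF7, IFIT1, SAMHD1, PARP14, PARP9, DTX3L, STAT2, IFITM3 and BST2 kept their call in every alternative in which they were tested. Replicate numbers did not pair the libraries (correlations of deviations −0.32 to 0.06). With replicate blocks 11 genes were called (8 higher, 3 lower), against 4808 of all genes. The blocks left the spike-in ratio at −0.93 with an exact sign-flip p of 0.0625. When 1 library was left out, the number of the 37 genes called with spike-in scaling was 4 to 22, all lower. Over all tested genes, 5643 to 12306 were called lower in the same fits. Values near 0 changed sign, and the cause was not tested. Without TMM, by library size only, ISG15 was 0.029 and ISG20 0.027. With upper-quartile scaling IFITM2 was −0.015, MAVS −0.021 and IFI44L −0.021. With the RNA integrity covariate ISG15 was 0.031, ISG20 0.24, IFITM2 −0.022, OAS3 −0.12, MAVS −0.017 and IFI44L −0.11. Leaving out 1 library gave ISG15 −0.068 to 0.052, ISG20 −0.33 to 0.16, IFITM2 −0.052 to 0.073, OAS3 −0.082 to 0.16, MAVS −0.060 to 0.044, ADAR −0.0062 to 0.11 and IFI44L −0.14 to 0.10. Depth limits the genes with fewer than 100 counts in a group.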
